A study of Mus musculus with 11 samples.

Results

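The CBX7 peaks are the regions that the authors called in a single CBX7 ChIP-seq library from wild-type mouse embryonic stem cells (ESCs). The group holds every peak of that list, 5081 of the 36229 peaks in the 4 lists of the series, and no peak was left out. In ChIP-seq, chromatin is cut and captured by an antibody, and a peak marks a stretch of DNA with an excess of captured reads. The ESCs were of the E14Tg2A line, grown without feeder cells in serum and leukemia inhibitory factor. The series holds 11 samples, 7 of ChIP-seq and 4 of RNA-seq. The other lists used here are RING1B in the same ESCs (1 library) and CBX6-HA in ESCs whose CBX6 carries an HA tag (2 replicates). The RNA-seq comes from ESCs infected with a control shRNA (shCtl, 2 libraries) or with an shRNA against Cbx6 (shCbx6, 2 libraries). These RNA libraries are from other cultures than the CBX7 ChIP, and the IgG control of that ChIP was not analysed here.

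CBX7 is a chromodomain protein of Polycomb repressive complex 1 (PRC1). Its chromodomain binds histone H3 trimethylated at lysine 27, the mark laid down by PRC2, and within PRC1 it sits beside RING1B, which ubiquitinates histone H2A. In ESCs, Polycomb complexes are known to occupy CpG-rich promoters of developmental regulators that are silent until differentiation. CpG islands are stretches in which the dinucleotide CpG, depleted from most of the genome, is kept.

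The RNA libraries carried the profile of ESCs. The 8 stem cell marker genes lay between 91.1 and 4580 FPKM (fragments scaled to transcript length and to library size) in shCtl replicate 1 and between 96.7 and 5397 FPKM in replicate 2. Of 6 fibroblast markers, Thy1 was the highest at 1.68 and 1.64 FPKM, and the other collagen and matrix genes were under 0.05 FPKM. The CBX7 peak list has 1 library and no replicate, so what follows describes that list, and its 95% Wilson intervals cover counting error only. The list gives no reads per peak, so the depth behind it is unknown.

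The sequences show what the bound DNA looks like at peaks that recur below: the highest score (Sphk1), the widest peak (Hoxb3 to Hoxb8), the widest peak of score 3100 (Uncx), a Polycomb gene (Cbx8), an imprinted and expressed gene (Grb10), an expressed stem cell gene (Esrrb), a peak far from any gene start, and the lowest score (Mamdc2). Each is the 150-base stretch of the peak with the most CpG that overlaps no annotated exon, read 5′ to 3′ on the plus strand of the mm9 genome, with CpG in capitals.
Sphk1, chr11:116392844-116392993: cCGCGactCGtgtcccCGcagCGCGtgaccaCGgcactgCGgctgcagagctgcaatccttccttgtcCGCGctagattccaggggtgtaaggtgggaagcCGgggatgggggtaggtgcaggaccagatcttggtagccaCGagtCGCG
Hoxb3 to Hoxb8, chr11:96194074-96194223: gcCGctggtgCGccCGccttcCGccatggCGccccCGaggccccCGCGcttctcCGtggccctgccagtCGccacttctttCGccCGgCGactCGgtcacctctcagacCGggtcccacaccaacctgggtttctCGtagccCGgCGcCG
Uncx, chr5:140024527-140024676: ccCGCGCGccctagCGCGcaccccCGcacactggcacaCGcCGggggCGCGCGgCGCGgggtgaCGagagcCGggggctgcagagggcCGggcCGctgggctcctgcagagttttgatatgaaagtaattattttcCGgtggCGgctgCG
Cbx8, chr11:118917961-118918110: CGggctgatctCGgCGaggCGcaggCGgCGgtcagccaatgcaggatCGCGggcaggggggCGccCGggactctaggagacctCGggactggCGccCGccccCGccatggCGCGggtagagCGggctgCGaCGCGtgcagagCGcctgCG
Grb10, chr11:11936940-11937089: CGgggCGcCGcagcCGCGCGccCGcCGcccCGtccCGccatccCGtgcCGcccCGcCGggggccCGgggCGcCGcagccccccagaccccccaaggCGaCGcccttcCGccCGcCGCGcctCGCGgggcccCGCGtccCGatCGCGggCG
Esrrb, chr12:87763452-87763601: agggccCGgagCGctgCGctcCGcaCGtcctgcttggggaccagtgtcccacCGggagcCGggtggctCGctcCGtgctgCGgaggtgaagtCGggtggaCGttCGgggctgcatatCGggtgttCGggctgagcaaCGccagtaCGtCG
61.2 kb from Mrps33, chr6:39822886-39823035: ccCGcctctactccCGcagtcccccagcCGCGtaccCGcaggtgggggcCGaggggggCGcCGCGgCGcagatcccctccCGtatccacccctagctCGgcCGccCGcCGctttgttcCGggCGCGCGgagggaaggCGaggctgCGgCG
Mamdc2, chr19:23522332-23522481: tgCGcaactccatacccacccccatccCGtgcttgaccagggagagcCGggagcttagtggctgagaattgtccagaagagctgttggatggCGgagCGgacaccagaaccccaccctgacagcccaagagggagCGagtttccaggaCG
The Grb10 stretch held 31 CpG in its 150 bases and the Mamdc2 stretch held 7. The stretches at Sphk1, the Hoxb genes, Uncx, Cbx8, Esrrb and the distal peak held 14, 19, 20, 22, 18 and 22. Because each was chosen as the densest part of its peak, these counts show the range between peaks and not the average of the bound DNA.

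Over the whole list the bound DNA was rich in G, C and CpG. In the central 300 bases of the 5081 peaks, the median GC content was 61.3% and the median ratio of observed to expected CpG was 0.67. The expected number is that of a random order of the same bases, so a ratio near 1 means no depletion. In 9644 windows of the same length placed 10 kb outside the peaks, the medians were 45.3% and 0.18. A window was called CpG-rich when its GC content was at least 55% and its ratio at least 0.6. By that rule 53.0% of the peak centres were CpG-rich, against 0.560% of the outside windows and 37.9% of 61439 protein-coding start sites with no CBX7 peak within 2.5 kb. Among the 8537 protein-coding start sites with a peak within 2.5 kb, 66.7% were.

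Short motifs followed that base composition. Searched on both strands in the same windows, CGCG was present in 66.0% of peak centres, 4.32% of outside windows and 42.9% of the start sites without a peak. The GC box GGGCGG, which overlaps CpG by its own letters, was in 41.0% of peak centres, 5.21% of outside windows and 37.9% of those start sites. The TATA motif TATAAA was in 4.57% of peak centres, 20.0% of outside windows and 9.88% of those start sites. CCAAT was in 21.6%, 34.9% and 33.3%, in the same order. The E-box CACGTG (5.47%, 3.92% and 6.73%) and GAGAG (62.8%, 59.3% and 61.9%) were found at more similar shares in the 3 kinds of window. The 8537 protein-coding start sites with a peak within 2.5 kb had CGCG in 75.8% and GGGCGG in 62.8%. TATAAA was in 5.35% of them, CCAAT in 25.7%, CACGTG in 6.93% and GAGAG in 66.3%. A match is a run of letters and not a measured binding site.

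CBX7 peaks were narrow for the most part, with a long tail of wide domains. Together they covered 13.5 Mb, or 0.507% of the genome. The median width was 2076 bp, with the narrowest peak at 396 bp, the 10th and 90th percentiles at 1028 bp and 4499 bp, and the widest peak at 56031 bp. Peaks under 1 kb numbered 450. The 405 peaks of 5 kb or more were 7.97% of the list and held 25.8% of all bases under peaks, and 102 peaks reached 10 kb. The RING1B list had a similar median (2315.5 bp), while those of CBX6 were 1438 bp and 1485 bp in replicates 1 and 2.

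Scores, the values that the authors' peak caller MACS gave each peak, ran from 50.05 to 3220.76 with a median of 300.38. The value 3100 recurred in 403 peaks, 27 peaks lay above it, and the next value below was 3088.92. Peaks of score 3100 were 2315 to 24180 bp wide (median 6364 bp), so within this group the score does not rank peaks and width was used instead. Over all 5081 peaks, width and score rose together (Spearman 0.875, a description across peaks of 1 library, both taken from the same reads). Of the 102 peaks of 10 kb or more, 82 had a score of exactly 3100, and the widest peaks of all were among the exceptions.

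**Figure D1:**
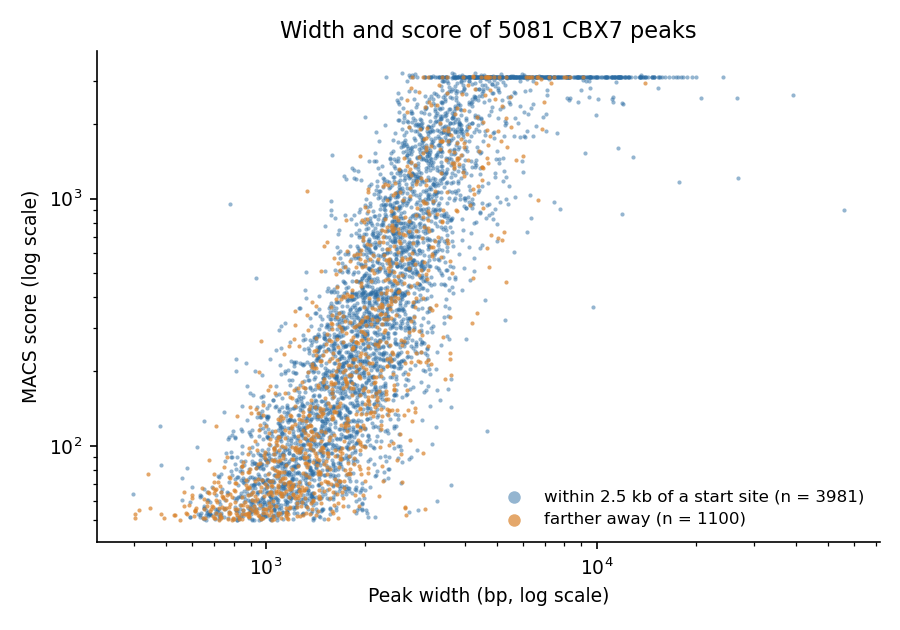
Each point is a CBX7 peak, with its width in bp on the x axis and its MACS score on the y axis, both on log scales; blue points lie within 2.5 kb of an annotated start site (3981) and orange points farther away (1100). Score rises with width up to the row of peaks at 3100, and the widest peak, at 56031 bp, lies below that row at a score of 902.43.

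The 10 highest scores all fell at start sites. They were at Sphk1 (a sphingosine kinase), Pgr (the progesterone receptor), Nell2 and Astn2 (neural proteins), Rassf10, Grb10 (an imprinted adaptor of growth factor signalling), Bai1 and Lphn3 (adhesion receptors), Cdkn1c (an imprinted cyclin-dependent kinase inhibitor) and Mafa (a transcription factor of pancreatic beta cells). The Sphk1 peak (chr11:116391713-116396007, mm9) had a score of 3220.76 and spanned 4295 bp with its centre 73 bp downstream of the start site. The Pgr peak (chr9:8899406-8903051) followed at 3217.75 and 3646 bp. These peaks were not the widest, since the 27 peaks above 3100 had a median width of 4483 bp. All 10 overlapped a RING1B peak, with RING1B scores of 2344.79 to 3214.43, all 10 overlapped a peak of CBX6 replicate 2, and 9 of 10, all but Lphn3, overlapped a peak of CBX6 replicate 1.

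Most of these 10 genes were silent in shCtl ESCs, with 7 under 1 FPKM in both libraries. Sphk1 was at 0.0680 and 0.134 FPKM, and Pgr at 0.0407 and 0.0625 FPKM in replicates 1 and 2. Grb10 stood apart at 62.0 and 73.3 FPKM, and Cdkn1c at 9.39 and 11.4 FPKM. Both are imprinted genes, expressed mainly from 1 parental copy in many tissues, and a peak list does not tell the copies apart. Bai1 was at 1.62 and 1.32 FPKM.

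The widest peaks lay over homeobox and other developmental regulators. The widest, 56031 bp at chr11:96140346-96196376, ran across the start sites of Hoxb3, Hoxb4, Hoxb5, Hoxb6, Hoxb7 and Hoxb8, which pattern the body axis, and of Mir10a. Its score was 902.43, and it overlapped 4 RING1B peaks, 12 peaks of CBX6 replicate 1 and 1 of replicate 2. The second, 39310 bp at chr15:102779023-102818332 with a score of 2628.16, covered Hoxc9, Hoxc10 and Hoxc11. The third, 26819 bp at chr6:52146602-52173420 with a score of 1213.16, covered Hoxa3, Hoxa5, Hoxa6 and Hoxa7. Next came Cbx8, itself a Polycomb gene (26597 bp, score 2552.13), and Uncx, a homeobox gene of the axial skeleton (24180 bp, score 3100). The remaining 5 were at Gata3 (20728 bp, score 2553.03), Six3 (19918 bp), Hlx (19402 bp), Hoxa7 to Hoxa10 (18768 bp) and Pax7 (18288 bp), the last 4 with a score of 3100. The 5 widest peaks of score 3100 were therefore Uncx, Six3, Hlx, the Hoxa7 to Hoxa10 peak and Pax7.

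No protein-coding gene at these 10 widest peaks reached 0.5 FPKM in either shCtl library. Cbx8 was at 0.305 and 0.201 FPKM, Uncx at 0.0320 and 0.0474 FPKM, and Gata3 at 0.0301 and 0.0396 FPKM. Among the Hox genes there, Hoxb7 was at 0.0851 and 0.0840 FPKM, and Hoxb3, Hoxb5 and Hoxb6 were listed at 0 in both libraries.

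Most CBX7 peaks lay at gene starts. Of 5081 peaks, 3981 (78.4%, 95% Wilson interval 77.2 to 79.5) came within 2.5 kb of an annotated transcript start, while such windows made up 8.95% of the genome. A start itself lay under 67.0% of the peaks. With the start of each gene in place of the start of every transcript, the share within 2.5 kb was 70.7%. Measured from peak centres, 46.1% lay within 0.5 kb of the nearest start, 29.1% at 0.5 to 2.5 kb, 11.8% at 2.5 to 10 kb, 9.82% at 10 to 50 kb and 3.15% beyond 50 kb. Of the peaks within 2.5 kb, 70.3% had their centre downstream of the nearest start, in the direction of transcription. By the base at the centre, 37.8% of peaks were in introns, 19.6% in coding exons, 14.6% in untranslated regions, 3.64% in non-coding exons, 10.4% within 2.5 kb upstream of a start and 14.0% in other intergenic DNA.

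The share at gene starts grew with the score. It was 66.2% in the lowest quartile of scores (50.05 to 108.39), then 76.9%, 82.0% and 88.3% in the highest (1005.37 to 3220.76). Median width rose with the score too, from 1159 bp to 3884.5 bp, and a wider peak reaches a start more easily. The median distance from the centre to the nearest start was 844, 531, 444 and 605 bp from low to high score. The parts of width and score were not tested apart. Peaks at the starts of the strongest quartile of genes were also broader. There, 21.0% of genes were still under a peak at 5 kb upstream and 24.4% at 5 kb downstream, against 0.860% and 0.538% in the weakest quartile. CpG content did not follow the score step by step. CpG-rich centres made up 37.7%, 52.4%, 64.2% and 57.9% of the quartiles from low to high score, with intervals of the last 2 that do not overlap (61.5 to 66.8 and 55.1 to 60.6).

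**Figure D2:**
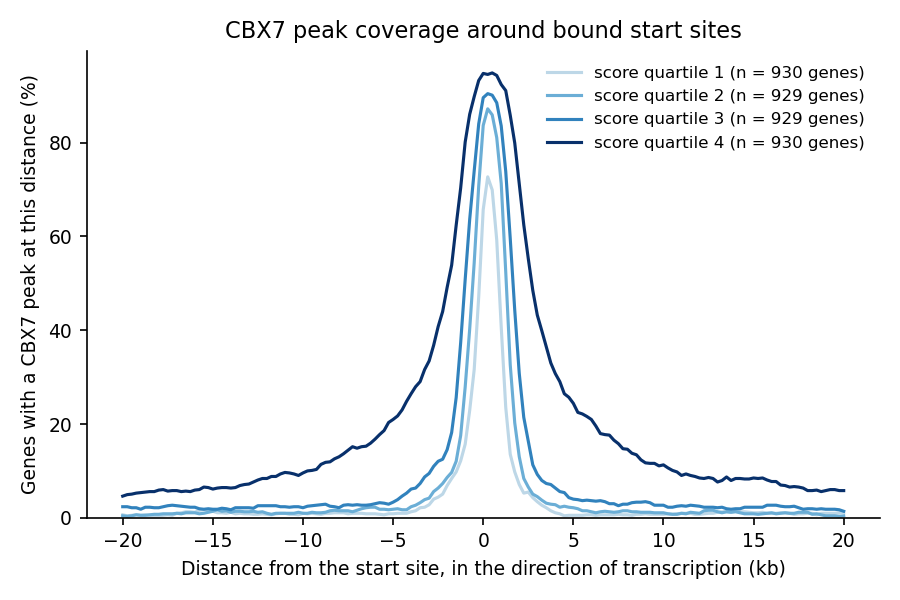
The x axis is the distance from the start site in kb along the direction of transcription, and the y axis the percentage of genes with a CBX7 peak at that distance, for genes with a peak within 2.5 kb split into quartiles by the highest score at their start (929 or 930 genes each). All 4 curves peak at the start or just downstream, and the curve of quartile 4 is the broadest, at 21.0% of genes 5 kb upstream.

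Protein-coding genes made up the bulk of the bound starts, and lincRNA genes had the higher share. A peak lay within 2.5 kb of a start for 3653 of 22380 protein-coding genes (16.3%), 307 of 1273 lincRNA genes (24.1%) and 69 of 5201 pseudogenes (1.33%). A peak can lie near more than 1 gene: 791 peaks had starts of 2 or more genes in reach, up to 9, and 3190 had those of a single gene. Multiply mapping reads were left out by the authors, so peaks can be missed in repeats and close gene copies, which was not tested.

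The 160 peaks centred over 50 kb from any start were narrower (median 1703 bp) and weaker (median score 172.1) than the list as a whole, and 106 of them (66.3%) overlapped a RING1B peak. Even so, 10 of them had a score of 3100 or more. The highest, with a score of 3141.45 and 4224 bp at chr6:39820072-39824295, lay 61.2 kb from the start of Mrps33, a mitochondrial ribosomal protein gene at 35.1 and 47.9 FPKM. Its densest stretch, printed above, held 22 CpG. The next were 65.7 kb from Gm3985 (score 3109.5), in a coding exon of Otud7a, 79.2 kb from Nr2f2, a nuclear receptor gene, and in an intron of Ptprn2, the last 3 with a score of 3100. All 5 overlapped a RING1B peak and peaks of both CBX6 replicates. The nearest start does not show which gene, if any, such a peak acts on.

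CBX7 peaks were spread over all autosomes and were sparse on the sex chromosomes. The autosomes held 2.00 peaks per Mb together, from 1.13 on chromosome 14 to 3.16 on chromosome 11. Chromosome X held 0.816 per Mb (136 peaks), and no peak was listed on chromosome Y. The list gives no read counts per chromosome, so the peak counts could not be set against read depth. Peak number followed gene number across the 19 autosomes (Spearman 0.876) more than length (Spearman 0.765), as a description of 1 library. Per 100 genes, chromosome 18 had the most peaks (40.5) and, among autosomes, chromosome 7 the fewest (15.8), with X at 13.7. Chromosome 18 carries the protocadherin gene arrays, and chromosome 7 many of the olfactory receptor genes. Whether either bears on these rates per 100 genes was not tested. Peaks of X were also narrower, with a median of 1504 bp against 1936 to 2269 bp on the autosomes.

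Some of the peaks sat in clusters, defined as 3 or more peaks with gaps of at most 50 kb. There were 314 clusters with 1334 peaks (26.3%, 95% interval 25.1 to 27.5), 480 pairs and 2787 peaks on their own (54.9%). Clustered and lone peaks had like scores (medians 304.3 and 305.3). Gaps between neighbours were under 1 kb in 465 cases, and with such peaks joined first the clustered share was 17.7%.

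The clusters with the most peaks were the 4 Hox loci and the protocadherin gamma genes, which encode adhesion proteins of neurons. The Hoxc locus on chromosome 15 had 23 peaks over 261.8 kb and 46.7% of its length under peaks. The Hoxa locus on chromosome 6 had 18 peaks over 174.4 kb and 71.4% covered, and the Hoxb locus on chromosome 11 had 14 over 205.1 kb and 60.6% covered. The Hoxd locus on chromosome 2 had fewer peaks, 13 over 111.2 kb, but was the most filled at 81.7%, with a median score of 3007.82 against 616.96 in Hoxc. The protocadherin gamma cluster on chromosome 18 had 20 peaks over 136.6 kb, 35.0% covered, a median score of 329.1 and no peak of score 3100. The annotation holds the starts of these genes under 1 gene of the expression table, Pcdhgc5. Further clusters were at Bcor on chromosome X, itself a gene of a PRC1 variant (12 peaks), at Nr2f2 (11 peaks, median score 1706.18), and along Des, Speg and Inha on chromosome 1 (11 peaks). The strong distal peak 79.2 kb from Nr2f2 was the outermost member of the Nr2f2 cluster.

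The homeobox families named here carried CBX7 peaks at nearly every member. All 39 Hox genes in the expression table had a peak within 2.5 kb of a start, against 3718 of all 21920 genes with coordinates (17.0%), and all 39 were under 1 FPKM. The share was also complete for Lhx (8 of 8), Dlx (6 of 6), Irx (6 of 6), Msx (3 of 3), Barhl and Barx (4 of 4), and the group of Otx, Pitx, Gbx, En, Emx, Vax and Vsx (15 of 15), all homeobox families. Nkx had 12 of 13, and Pax had 8 of 9, with Pax4 left out. Lhx1 had a peak of score 3100 and 12443 bp and was listed at 0 FPKM in both shCtl libraries. Nkx2-3 had a peak of 14058 bp, Dlx6 of 12516 bp, Pax3 of 17407 bp and Irx5 of 11146 bp, each with a score of 3100 and each under 0.05 FPKM. Not every bound member was silent. Those under 1 FPKM were 7 of 8 for Lhx, 11 of 12 for Nkx, 6 of 8 for Pax and 11 of 15 for the Otx to Vsx group. All bound Dlx, Irx, Msx, Barhl and Barx genes were under 1 FPKM.

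Other transcription factor families were bound in large part. The count was 20 of 23 for the bHLH factors, 13 of 16 for T-box, 5 of 6 for Gata, 14 of 18 for Sox, 27 of 44 for Fox and 4 of 8 for Zic and Gli. Hand2, a bHLH factor of heart and limb, had a peak of 17643 bp and a score of 3100 and was listed at 0 FPKM. Tbx2 (16994 bp), Foxd2 (15785 bp) and Sox14 (10691 bp) also had a score of 3100. The level of members without a peak at a start differed between families: the 4 Sox genes without a peak (Sox2, Sox4, Sox12 and Sox15) were all at 1 FPKM or more, as were 12 of the 17 such Fox genes, while 11 of the 14 Sox genes with a peak were under 1 FPKM. The 3 T-box genes (Tbx6, Tbx10 and Tbx19), the 3 bHLH genes (Ascl3, Neurod4 and Neurod6) and the Gata gene (Gata1) without a peak were all under 1 FPKM.

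Signalling genes followed with shares that ranged widely between families. Of the Wnt ligands 17 of 19 had a peak at a start, all 17 under 1 FPKM. Of the Fzd receptors 9 of 10 had one, 5 of them under 1 FPKM. Wnt5a had a score of 3100 and a width of 9899 bp at 0.188 and 0.161 FPKM. Fzd1, at 3100 and 4664 bp, was at 0.152 and 0.150 FPKM. Fgf had 14 of 22, Bmp and Gdf 11 of 21, the Eph receptors and ephrins 16 of 22, and potassium channel genes (Kcn) 56 of 92. Of the members without a peak at a start, 6 of 8 Fgf, 8 of 10 Bmp and Gdf and 32 of 36 Kcn genes were under 1 FPKM too. Of the 6 such Eph and Efn genes, 0 were. Scores were lower in some of these families, with medians of 391.0 for Eph and Efn, 491.0 for Kcn and 676.5 for Fzd, against 3100 for Hox and 421.8 over all bound genes.

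Cell cycle inhibitors split in 2 groups. Cdkn1c (3177.48), Cdkn2a (3100, 4092 bp) and Cdkn2c (2414.57) were among the 4 of 7 Cdkn genes with a peak, and Cdkn1a, Cdkn1b and Cdkn2d had none. Cdkn2a, which encodes inhibitors that halt the cell cycle and is a known Polycomb target, was at 2.96 and 1.93 FPKM. Few peaks were called in families of terminal or housekeeping function: 3 of 46 keratin genes (Krt7, Krt8 and Krt18), 1 of 1086 olfactory receptor genes (Olfr94) and 2 of 83 ribosomal protein genes had a peak at a start. The 2 ribosomal genes, Rpl7 (score 280.95) and Rpl12 (score 86.79), were expressed at 2040 and 2514 FPKM, and at 2999 and 3642 FPKM, and the peak of Rpl12 overlapped none of the other lists.

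**Figure D3:**
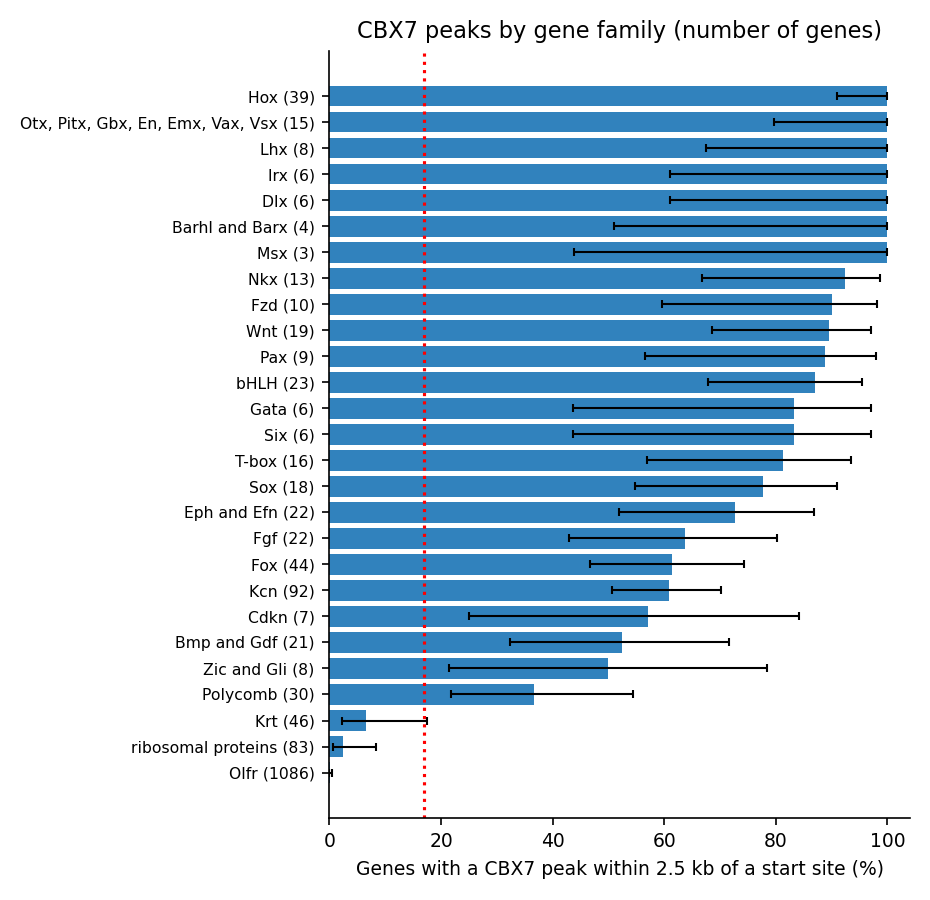
Bars give the percentage of genes in each family with a CBX7 peak within 2.5 kb of a start site, with 95% Wilson intervals and the number of genes in parentheses; the dotted line is the 17.0% of all genes with coordinates. Hox and 6 other homeobox groups stand at 100%, and keratin, ribosomal protein and olfactory receptor genes lie below the line.

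Polycomb genes were among the bound genes, with strong peaks at some of them. Of 30 Polycomb subunit genes, 11 had a peak at a start. Cbx8 (score 2552.13, 26597 bp), which encodes another CBX protein of PRC1, was at 0.305 and 0.201 FPKM. Bmi1, a PCGF subunit of PRC1, followed with a score of 2249.48 and 1.94 and 1.39 FPKM, then Phf19 at 645.7 and Yaf2 at 535.6. Weaker peaks were at Cbx2 (134.7), Phc2 (89.6), E2f6 (79.9), Kdm2b (66.9), Pcgf5 (66.7) and Phc1 (56.6). Neither Cbx6 (17.4 and 14.9 FPKM) nor Cbx7 (76.2 and 69.9 FPKM) had a peak at a start, nor did the genes of RING1B (Rnf2) and of the PRC2 core (Ezh2, Eed, Suz12). All 19 Polycomb genes without a peak at a start were at 1 FPKM or more. Of the 11 with a peak at a start, only 2 were under 1 FPKM, so most of these were expressed as well.

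Most markers of early lineages had a peak, and most stem cell and fibroblast markers had none. The 4 primitive endoderm genes Gata4, Gata6, Sox17 and Pdgfra all had a peak of score 3100, 8539 to 9952 bp wide, and lay between 0.0103 and 0.426 FPKM. The mesoderm genes T and Eomes, the neuroectoderm gene Pax6 and the trophectoderm genes Cdx2 and Hand1 also had a score of 3100. Eomes was the highest of these in shCtl ESCs, at 2.12 and 1.42 FPKM, and Mixl1 (932.8) and Nes (1336.73) had lower scores. Elf5 had no peak, and Sox1 could not be matched to the annotation. Of the 8 stem cell genes, Pou5f1, Nanog, Sox2, Zfp42, Klf4, Dppa5a and Tdgf1 had no peak, while Esrrb had a strong one. Of the 6 fibroblast genes, Col1a1, Col1a2, Col3a1, Dcn and Lum, all under 0.05 FPKM, had no peak, and Thy1 had a peak of score 409.12.

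Esrrb and Gnas combined a strong peak with high expression. Esrrb, an orphan nuclear receptor of the pluripotency network, was at 203.5 and 188.8 FPKM. Its peak (chr12:87761563-87765570, 4008 bp, score 1718) lay inside the gene, which spans chr12:87702067-87862578 on the plus strand, at an internal annotated start and not at the first start. Gnas, an imprinted locus with several alternative starts, had a peak of score 2013.85 at chr2:174151793-174155641 and was at 116.1 and 122.1 FPKM. This peak belonged to a cluster of 3 over chr2:174110810-174155641 that begins near the first start of the gene, at base 174109821. FPKM are given per gene, so which start was used cannot be told. The other genes of highest expression with a start under a peak had weak ones: Mt1 (171.4 and 323.7 FPKM, score 96.53), Mid1 (192.1 and 118.6 FPKM, score 111.46) and Slc25a4 (108.9 and 133.3 FPKM, score 247.35). Only Esrrb and Gnas of these 5 overlapped a RING1B peak.

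Over all bound genes, expression was low and fell as the score rose. With a peak anywhere from 2.5 kb upstream of the start to the transcription end, 3923 genes were targets, and 68.0% of them (95% interval 66.5 to 69.4) had a mean under 1 FPKM in shCtl ESCs, against 46.1% of the 17997 genes without a peak. The median was 0.264 FPKM for targets and 2.01 FPKM for genes without a peak. Both shCtl libraries gave nearly the same share, 68.4% and 68.0%. Among the 3718 genes with a peak within 2.5 kb of a start, the share under 1 FPKM was 50.4%, 61.2%, 74.8% and 87.2% from the lowest to the highest quartile of scores, and the median fell from 0.956 to 0.0613 FPKM. At peaks of 10 kb or more, 133 of 140 genes were under 1 FPKM. Across genes the Spearman correlation of score and FPKM was -0.33 and that of width and FPKM was -0.25, as descriptions over 3718 genes that share 1 ChIP library.

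**Figure D4:**
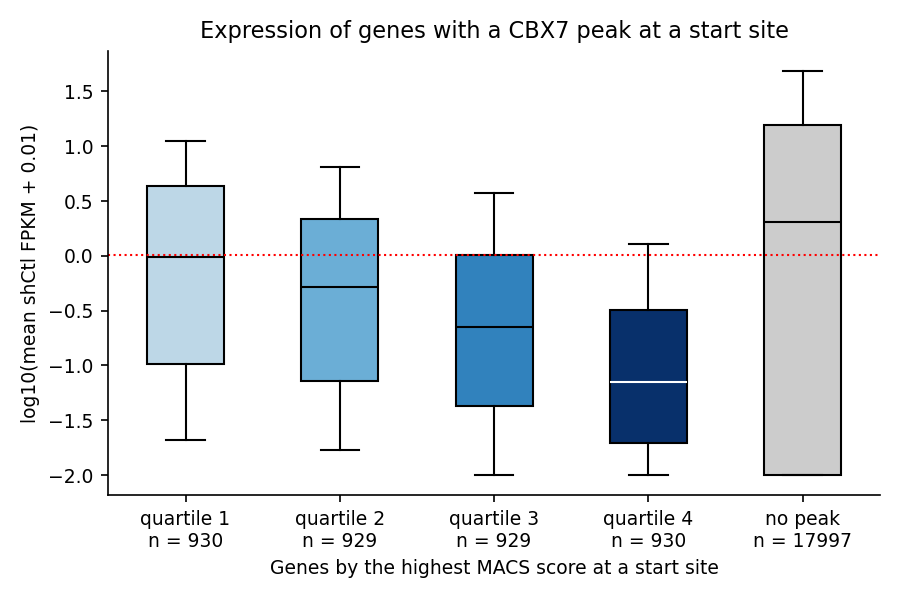
Boxes give the median and quartiles, and whiskers the 10th and 90th percentiles, of log10(mean shCtl FPKM + 0.01) for genes with a CBX7 peak within 2.5 kb of a start, in quartiles by highest score, and for genes without a peak in grey; the dotted line marks 1 FPKM. The median falls from 0.956 FPKM in quartile 1 to 0.0613 FPKM in quartile 4, and genes without a peak have a median of 2.01 FPKM.

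Where the peak lay relative to the start also went with expression. Of 3331 genes with a start under a peak, 70.9% were under 1 FPKM, against 47.3% of the 387 genes whose start was within 2.5 kb of a peak but not under it, a share close to that of genes without a peak. Genes with a peak in the body only (221) stood between at 58.4%. RING1B marked a similar division. Where the strongest peak at the start overlapped RING1B, 73.5% of 3061 genes were under 1 FPKM, and where it did not, 44.6% of 657 were. Peaks without RING1B were also weaker, with a median score of 80.57 against 501.98, and the parts of score and of RING1B were not tested apart.

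CpG content and expression together separated bound from unbound promoters. For protein-coding genes of the expression table, starts were called CpG-rich by the same limits over 1000 bases. Of 2014 genes with a CpG-rich start and a mean under 1 FPKM, 1609 had a CBX7 peak (79.9%, 95% interval 78.1 to 81.6). The share was 25.9% of 3132 CpG-rich genes at 1 to 10 FPKM and 3.62% of 4390 at 10 FPKM or more. Of CpG-poor genes under 1 FPKM, 9.67% of 7651 had a peak, then 8.66% and 2.46% in the same bins. All 1077 protein-coding olfactory receptor genes and all 46 keratin genes had CpG-poor starts, and 1075 and 41 of them were under 1 FPKM. CpG-poor starts were not free of peaks in every family: 16 of the 39 Hox genes, all of them bound, also fell below the limits for CpG-rich starts. Of the 3500 protein-coding genes with a peak at a start that have a value in the expression table, 2580 (73.7%) had a CpG-rich start.

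**Figure D5:**
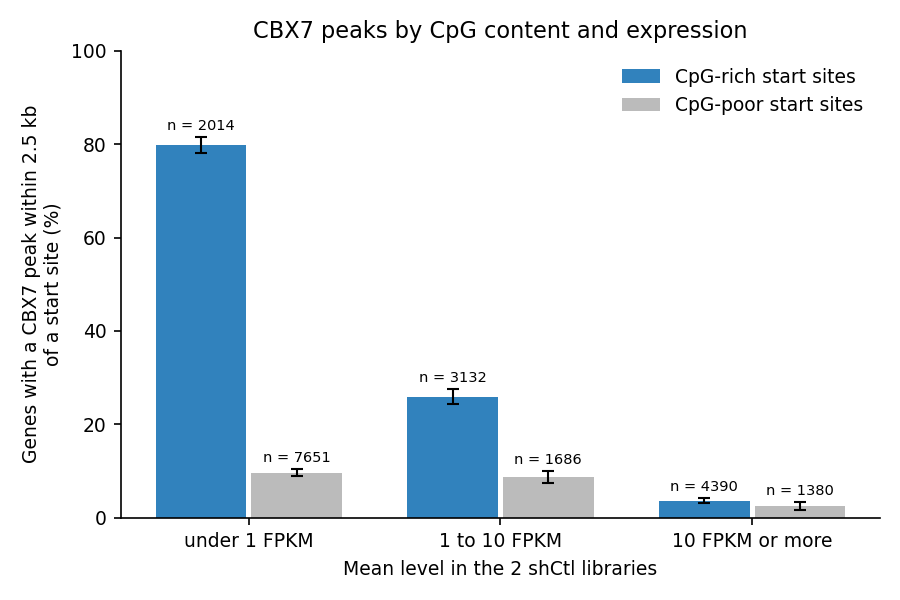
Bars give the percentage of protein-coding genes with a CBX7 peak within 2.5 kb of a start, by CpG class of the start and by mean level in the shCtl libraries, with 95% Wilson intervals and the number of genes above each bar. The CpG-rich genes under 1 FPKM stand at 79.9%, and all 3 CpG-poor bars are below 10%.

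Nearly all strong CBX7 peaks were shared with RING1B. Of 5081 CBX7 peaks, 3927 (77.3%, 95% interval 76.1 to 78.4) overlapped a RING1B peak by at least 1 bp, and 3761 of 4180 RING1B peaks (89.98%) overlapped a CBX7 peak. By quartile of CBX7 score the share was 35.5%, 75.4%, 98.3% and 100%. CBX6 replicate 1 overlapped 74.0% of CBX7 peaks (19.6% of its own 21865), and replicate 2 overlapped 72.3% (79.6% of its own 5103). The CBX6 replicates thus gave nearly the same share from lists of very different length. With scores of at least 100 in both lists, the share fell to 57.4% for replicate 1 and stayed at 70.7% for replicate 2. By score quartile the shares were 53.1% to 95.7% in replicate 1 and 33.9% to 99.9% in replicate 2. Peaks in all 3 other lists numbered 2737 (53.9%) and had a median width of 2778 bp and a median score of 836.95, while 359 (7.07%) were in none of them, with medians of 1092 bp and 68.1.

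The shCbx6 libraries bear on the expressed part of the CBX7 targets. A larger share of targets than of all genes passed a 1.5-fold ratio between shCbx6 and shCtl, and 1 target passed a test. Cbx6 itself had 17.4 and 14.9 FPKM in the shCtl libraries, while replicates 1 and 2 of shCbx6 had 9.53 and 5.40 FPKM. Cbx7 had 76.2 and 69.9 FPKM with the control shRNA, and 84.8 and 61.1 FPKM with the shRNA against Cbx6. Of 1459 targets that reached a group mean of 1 FPKM, 367 (25.2%) were at least 1.5-fold higher in shCbx6, beside 7.63% of all 11592 genes tested, and 205 (14.1%) at least 1.5-fold lower, beside 6.56%. These ratios carry no test. Of the targets, 202 were under 1 FPKM in shCtl and were kept only by their level in shCbx6, so they could not count as lower: 166 of them were among the higher targets and 0 among the lower, and of 218 such genes without a peak 164 were higher and 0 lower. The excess of higher over lower targets is therefore not read as a result. In 327 of the higher and 193 of the lower targets the libraries of the 2 groups did not overlap, beside 6.36% and 5.92% of all genes, but 149 of those 327 were again among the 202 kept only by their level in shCbx6. Targets had lower levels than other tested genes, with shCtl medians of 2.74 and 13.1 FPKM. Among genes at 1 to 10 FPKM, 17.4% of targets were higher and 17.4% lower, against 6.17% and 8.04% of genes without a peak. Without shCbx6 replicate 2 the number of higher targets was 223.

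The test of limma, with Benjamini-Hochberg adjustment over the 11592 genes, called 1 target, beside 0.0949% of all genes (11). That gene was Mapt, which encodes the microtubule protein tau, with a peak of score 1245.77 and 4185 bp. Mapt was at 6.94 and 7.44 FPKM in the shCtl libraries, while the shCbx6 libraries had 0.645 and 0.914 FPKM, so the groups did not overlap. It fell by 2.21 ± 0.17 on the log2(FPKM + 1) scale (SE, limma adjusted p = 0.032, 2 libraries per group). At an unadjusted p under 0.05 there were 371 targets (25.4%) and 1352 of all genes (11.7%). With the replicate number added to the fit as a block, limma called 127 targets. The number of targets called was 0 without shCtl replicate 2, 5 without shCbx6 replicate 2 and 165 without shCbx6 replicate 1, and Mapt missed the threshold without either shCtl library (limma adjusted p = 0.19 and 0.27) and without the filter on low FPKM (limma adjusted p = 0.18). With 1 library left out, the lone library of its group is assumed to vary like the other group, so these fits rest on the spread of 1 pair of libraries. No count over all genes was made for any fit but the main one. The counts of targets called in the other fits are therefore not read as results about the targets.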

How the data were processed

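The authors aligned ChIP-seq reads to mm9 with Bowtie, without reads that map to several places. Peaks were called in each sample by MACS at a shift size of 75 bp. The deposited score of each peak is the MACS score and was used only within its list. The FPKM were made by the authors with TopHat and Cufflinks on RefSeq and were deposited per gene symbol. Of 23290 entries, 25 carry dates in place of symbols, and 21920 genes could be placed on the GENCODE annotation of mm9, 772 symbols by synonym. How transcripts were combined is not given in the sources used here.

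Peaks were compared in Python 3.11.15 (numpy 2.4.6, pandas 2.3.3, scipy 1.17.1), and bases were read with pysam 0.24.0. shCbx6 was compared with shCtl in limma 3.58.1 (R 4.3.3) on log2(FPKM + 1), with trend and no replicate term, for genes that reached a group mean of 1 FPKM. The step was tested on simulated data. Nothing says that the libraries of a group came from separate cultures, so p-values measure the spread between libraries. Named genes are those at the 10 highest scores, the 10 widest peaks, the 5 widest of score 3100, the 5 clusters of most peaks, the 5 highest expressed, the 5 strongest distal peaks, the Polycomb genes, the family examples of highest score and the targets called by limma. Clusters beyond those 5 and the members without a peak or of the smallest counts were named after their values were seen. The members and lists were chosen with earlier results of these data known. The counts of 1 further homeobox family are not given in the text.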

Additional observations from a re-analysis of the deposited data

How the results depend on the processing

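Several values moved by more than their counting error under the alternatives run. With scores of at least 100, the median width was 2443 bp, the share near a start 82.2%, the clustered share 19.9%, the share of targets under 1 FPKM 72.3%, and the overlaps 82.0% with RING1B, 57.4% with CBX6 replicate 1 and 70.7% with replicate 2. With scores below 3100 the median width was 1963 bp. The share near a start was 74.5% within 1 kb, 83.0% within 5 kb, 75.2% with starts of the expression table only, and 70.7% with 1 start per gene, an alternative chosen after seeing the data. The clustered share was 14.1% with gaps of 10 kb, 37.0% with 100 kb, and 17.7% with peaks closer than 1 kb joined. At a threshold of 0.5 FPKM, 58.5% of targets were below it. When a single peak had to cover at least 50% of the CBX7 peak, the overlaps were 75.6%, 58.1% and 61.3% for RING1B and CBX6 replicates 1 and 2.

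For shCbx6 against shCtl, the count of targets without a filter was 1322 higher, 632 lower and 5 called by limma, where many ratios rest on values near 0. A pseudocount of 0.1 gave 4 limma calls. With the replicate number as a block, limma called 127 targets in place of 1. The deviations of same-numbered libraries correlated at 0.27 over 11592 genes, but with 2 pairs and no label that says so, the libraries share only a number. The block cannot change a ratio of means. Counts over all genes were made for the main setting only. The counts of targets under these alternatives therefore have no share beside them and are not read as results about the targets. Leaving out each library in turn gave 0 to 165 limma calls, 223 to 530 higher and 210 to 249 lower targets.

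The peak list has 1 library of unknown depth, its IgG control was not analysed here, and the score does not separate 403 peaks. A weak or absent peak therefore does not show absence of CBX7. The start sites are of another annotation than the authors'.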
